A study of Mus musculus with 2 samples.

Results

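Macrophages of denervated muscle that carried Gpnmb together with Fabp5 are described here as they appeared in the GFP-positive cells of hind limb muscle 7 days after sciatic nerve crush. Cells were chosen by a rule on unique molecular identifiers (UMIs, each a counted RNA molecule). A barcode needed at least 5000 UMIs, under 10% of them from mitochondrial genes, at least 3 of Gpnmb, at least 5 of Fabp5 and at least 3 of Tyrobp and Fcer1g together. It could hold at most 3 UMIs of Lyve1, Folr2, Cd163 and Fcna combined, which mark resident macrophages. The rule kept 183 of 36400 barcodes. They were 2.09% (1.80 to 2.42%) of the 8742 barcodes that met the depth and mitochondrial limits, and 2.78% (2.40 to 3.21%) of the 6583 of these with 3 Tyrobp and Fcer1g UMIs, called deep myeloid cells below. Ranges in parentheses are 95% exact intervals and cover counting error only.

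The library came from tibialis anterior and gastrocnemius muscle of 2-month-old male S100GFPtg mice, a transgenic line in which the S100B promoter drives green fluorescent protein so that Schwann cells can be sorted. All cells described had the S100GFPtg genotype, the crush injury and the sort for GFP in the absence of propidium iodide in common, so no comparison between injury and rest, or between genotypes, was possible. The deposited design speaks of a single crushed animal, whereas the study's methods state that male mice were pooled, so the number of animals is uncertain. The muscles were pooled, and all values come from 1 droplet library. There is therefore no replicate test, and differences between cells are given as values of this library with counting intervals.

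Gpnmb encodes a transmembrane glycoprotein that is induced in phagocytes loaded with lipid or stressed in their lysosomes. Fabp5 encodes a cytoplasmic fatty acid carrier, Spp1 the secreted matrix protein osteopontin, and Lgals3 the sugar-binding galectin-3. Macrophages that express these genes with Trem2, a receptor for lipids, are known from obese fat, atherosclerotic vessels, injured nerve and demyelinated tissue, where they take up lipid-rich debris such as myelin. Lipids from engulfed material are cut from lipoproteins and membranes in the acid lysosome, stored as droplets or exported as cholesterol, and oxysterols formed on the way act on the nuclear receptor encoded by Nr1h3.

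Promoter windows of Gpnmb, which chose the cells, of the markers Spp1 and Lgals3, and of the cathepsin gene Ctsd are shown because the levels of these genes are described in detail for the same cells. Fabp5 has no entry. The sequences are from RefSeq on GRCm38.p6, run 5′ to 3′ on the strand of the gene from 250 bases before the annotated start to 30 bases after it, and capitals mark matches on either strand to the E-box CACGTG, the AP-1 letters TGANTCA or the PU.1 letters GAGGAAGT.
Gpnmb, chr6:49036268-49036547, plus strand: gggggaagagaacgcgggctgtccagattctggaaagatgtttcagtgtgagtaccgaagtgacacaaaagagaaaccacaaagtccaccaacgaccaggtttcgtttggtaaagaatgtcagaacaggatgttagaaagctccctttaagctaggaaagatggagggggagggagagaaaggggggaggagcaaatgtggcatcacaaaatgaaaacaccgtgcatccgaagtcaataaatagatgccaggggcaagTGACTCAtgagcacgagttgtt
Spp1, chr5:104434861-104435140, plus strand: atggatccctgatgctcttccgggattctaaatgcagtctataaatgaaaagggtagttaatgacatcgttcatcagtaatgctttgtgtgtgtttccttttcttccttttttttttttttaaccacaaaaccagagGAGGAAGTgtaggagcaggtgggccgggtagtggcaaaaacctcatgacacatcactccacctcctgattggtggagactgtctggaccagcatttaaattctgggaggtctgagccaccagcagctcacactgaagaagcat
Lgals3, chr14:47373610-47373889, plus strand: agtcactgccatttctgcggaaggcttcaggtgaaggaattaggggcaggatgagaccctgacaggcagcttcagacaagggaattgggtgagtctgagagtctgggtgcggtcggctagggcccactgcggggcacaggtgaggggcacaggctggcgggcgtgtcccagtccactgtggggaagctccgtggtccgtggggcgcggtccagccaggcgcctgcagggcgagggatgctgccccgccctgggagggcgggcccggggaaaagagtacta
Ctsd, chr7:142387798-142388077, minus strand: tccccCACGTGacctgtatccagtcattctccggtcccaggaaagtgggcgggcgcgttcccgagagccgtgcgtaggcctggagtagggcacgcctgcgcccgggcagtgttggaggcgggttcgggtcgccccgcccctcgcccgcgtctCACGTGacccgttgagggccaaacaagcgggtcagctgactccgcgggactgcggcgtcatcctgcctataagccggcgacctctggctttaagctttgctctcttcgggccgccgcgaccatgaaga
Of all 32851 windows of this length, 6.79% held the E-box letters, 7.46% the AP-1 letters and 2.82% the PU.1 letters. The Gpnmb window held TGACTCA, the first Spp1 window held GAGGAAGT, and the Ctsd window held CACGTG at 2 places, while the Lgals3 window held none of the 3. These matches describe the letters only. On the same build Gpnmb lies at chr6:49036518-49058182, Fabp5 at chr3:10012585-10016610, Spp1 at chr5:104435111-104441053 and Lgals3 at chr14:47373860-47386167.

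The cells carried markers of macrophages and monocytes, which do not set the 2 apart. Each of the 183 held at least 43 UMIs of 15 macrophage and monocyte markers, with a median of 384 and a highest value of 1217. Those markers summed to 21121 CPM (UMIs of a gene per 1000000 UMIs of the group) in these cells, to 15625 CPM in the other 6400 deep myeloid cells, to 21833 CPM in the Ly6c2 Chil3 monocytes described below, and to 238.2 CPM in 1551 deep cells with no Tyrobp or Fcer1g UMI, called non-myeloid. Schwann markers summed to 30.1 CPM, with Sox10, Foxd3, Egfl8 and Ncmap at 0, and T and NK cell markers to 0.828 CPM. Mesenchymal markers summed to 669.5 CPM, below the 1990 CPM of the other deep myeloid cells and the 35037 CPM of non-myeloid cells. A single cell held 1064 of the 2425 mesenchymal UMIs and 79 cells held none, and 11 cells held 5 or more. At least 5 UMIs of another cell class were found in 35 of the 183 cells (19.1%) and in 34.6% of deep myeloid cells, and 9 of the 183 (4.92%) were among the 10% with the highest Scrublet doublet scores.

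Depth differed between the groups and bears on the rule itself. The Gpnmb Fabp5 cells had a median of 18802 UMIs (lowest 5222, highest 43413), compared with 11240 in the other deep myeloid cells. The share that met the rule was 0.404% (0.194 to 0.742%) of deep myeloid cells with 5000 to under 10000 UMIs, 2.80% (2.27 to 3.41%) at 10000 to under 20000, and 10.9% (8.72 to 13.4%) at 20000 or more. When each cell was thinned to 5000 UMIs by random draw, the number of genes detected was alike, with medians of 1896 and 1974. Mitochondrial genes took a median of 2.83% and 3.64% of UMIs. The part of depth in the share of cells was not tested.

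**Figure D1:**
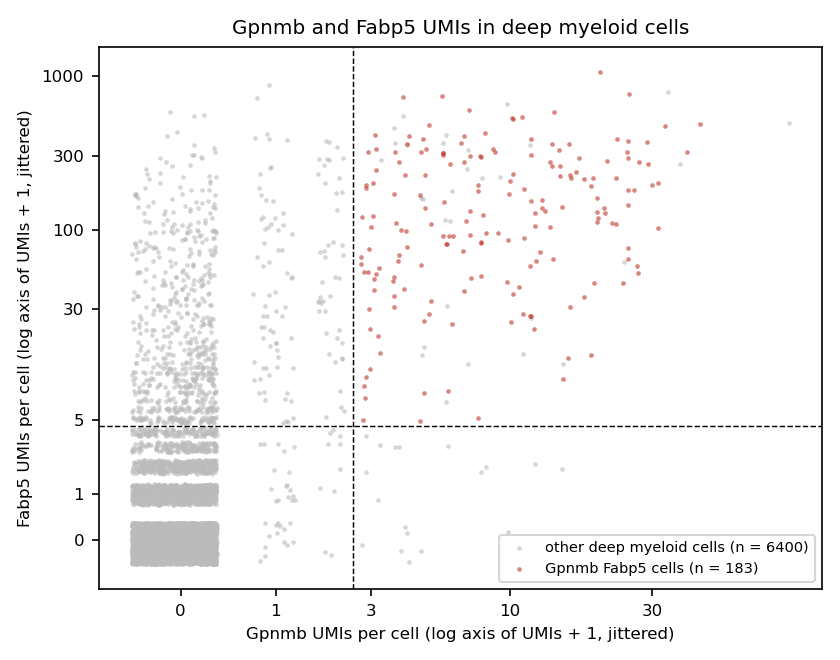
Gpnmb UMIs (x axis) and Fabp5 UMIs (y axis) in the 6583 deep myeloid cells, 1 point per cell, on log axes of UMIs + 1 with jitter. Dashed lines mark the limits of 3 Gpnmb and 5 Fabp5 UMIs, red points are the 183 Gpnmb Fabp5 cells, and grey points to the upper right of both lines are the 30 cells removed for resident macrophage UMIs.

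Gpnmb was the scarcer of the 2 positive genes of the rule. At least 1 Gpnmb UMI was found in 386 deep myeloid cells and at least 3 in 231, of which 213 also had 5 Fabp5 UMIs and 30 of those were removed for resident markers. Fabp5 alone reached 5 UMIs in 985 cells. The chosen cells ranged from 3 to 43 Gpnmb UMIs with a median of 8, and from 5 to 1060 Fabp5 UMIs with a median of 128. As the rule fixes, Gpnmb was at 565.4 CPM and Fabp5 at 9241 CPM, compared with 8.33 and 614.9 CPM in other deep myeloid cells. The 183 cells, which held 4.31% of all UMIs of deep myeloid cells, held 75.4% of their Gpnmb UMIs.

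The limit on Gpnmb did not fall at a gap in the values. The 28 cells just inside it, with 3 Gpnmb UMIs, had 3394 CPM of Spp1 and 6748 CPM of Fabp5. The 39 cells just outside, with 2 Gpnmb UMIs and all else as in the rule, had 6272 CPM of Spp1 and 7388 CPM of Fabp5. Spp1 was at 1945 CPM in 56 cells with 1 Gpnmb UMI and 792.9 CPM in 468 cells with none. Within the rule, the 33 cells with 20 or more Gpnmb UMIs had 2040 CPM of Spp1, below the 3394 CPM at 3 Gpnmb UMIs. These are sums over few cells, which single cells rich in Spp1 can move, and their order was not tested.

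Spp1, which took no part in the rule, was detected in most but not all of these cells. It was at 2683 CPM (2630 to 2737), compared with 249 CPM (245.6 to 252.5) in the other deep myeloid cells, a 10.8-fold difference. After thinning to 5000 UMIs, 79.2% (72.6 to 84.9%) of Gpnmb Fabp5 cells held an Spp1 UMI, compared with 12.9% of other deep myeloid cells. In non-myeloid cells the share was 1.74% and the level 22.8 CPM, but these cells were chosen for holding no Tyrobp or Fcer1g UMI, so this can understate the Spp1 that free RNA or mixed barcodes give. At full depth, with medians of 18802, 11240 and 12905 UMIs, the shares came to 86.9%, 17.6% and 3.22%.

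Counts of Spp1 were spread unevenly among the 183 cells. They ran from 0 to 870 UMIs with a median of 17 and quartiles of 4 and 56.5. A total of 24 cells held none, 23 held 100 or more, and the 10 richest cells held 44.1% of the Spp1 UMIs. Without those 10, the log2 ratio to other deep myeloid cells was 2.71 in place of 3.43. Spp1 was also not confined to these cells, since they held 32.7% of the Spp1 UMIs of all deep myeloid cells.

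A further 3 gates within the deep myeloid cells were set beside the Gpnmb Fabp5 cells. Resident-like macrophages were 3527 cells with at least 5 UMIs of Lyve1, Folr2, Cd163 and Fcna. Ly6c2 Chil3 monocytes were 591 cells with at least 5 UMIs of Ly6c2 and Chil3 and at most 3 of the resident genes, after removal of 97 Gpnmb Fabp5 cells that met the same limits. MHC class II C1q macrophages were 934 cells with at least 5 UMIs of C1qa, C1qb and C1qc and 30 of Cd74, H2-Aa and H2-Ab1, no Flt3, at most 3 of the resident genes and under 5 of Ly6c2 and Chil3, again without Gpnmb Fabp5 cells. Spp1 was next highest in the monocytes, at 1133 CPM (1110 to 1157), then in the MHC class II C1q macrophages, at 295.6 CPM (285.2 to 306.2), and lowest in resident-like macrophages, at 71.3 CPM (68.9 to 73.8). At 5000 UMIs per cell, 31.3% of monocytes, 21.4% of MHC class II C1q macrophages and 5.44% of resident-like macrophages held an Spp1 UMI. Cells with 10 or more Spp1 UMIs at that depth were frequent among Gpnmb Fabp5 cells, where 25.1% held 10 to 29 and 10.4% held 30 or more, and the matching shares of monocytes were 5.42% and 3.05%.

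**Figure D2:**
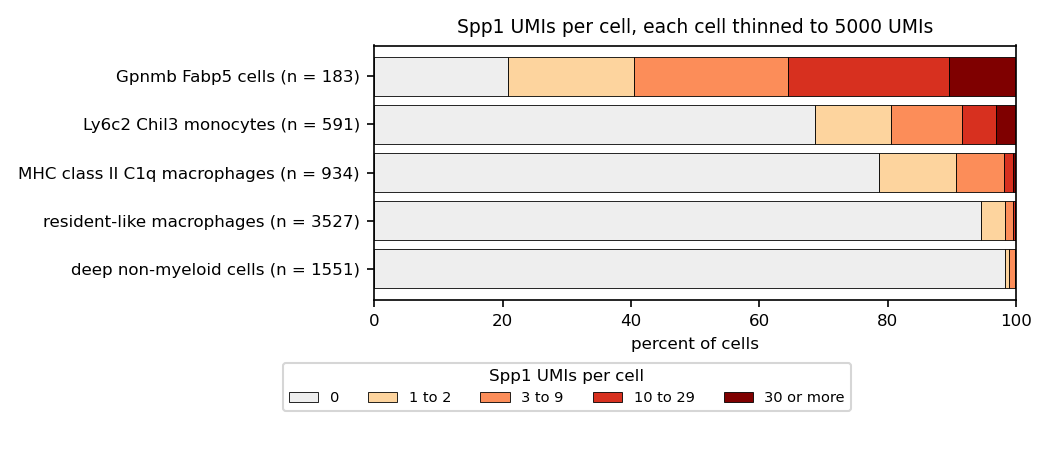
Percent of cells (x axis) in each class of Spp1 UMIs per cell, after each cell was thinned to 5000 UMIs, for 5 groups of the library (bars, with the number of cells). The Gpnmb Fabp5 bar has 20.8% of cells at 0, compared with 68.7% of Ly6c2 Chil3 monocytes and 94.6% of resident-like macrophages.

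The list of lipid-associated macrophage genes stood high as well. It includes the marker Spp1 and was chosen with earlier results of these data known. A gene is called higher or lower below when its CPM ratio was at least 2-fold, among genes with at least 50 UMIs over both groups. Of 14776 genes tested against the other deep myeloid cells, the rule genes left out, 3.26% were higher and 32.7% lower in Gpnmb Fabp5 cells, and the median log2 ratio of all genes was -0.44. Centring the ratios on that median turned 481 higher and 4838 lower genes into 1445 and 3492. Of 27 lipid-associated macrophage genes tested, 22 were higher and none lower, with a median log2 ratio of 1.43, and the counts were the same when centred and without barcodes holding 5 UMIs of another class.

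Lgals3, in the label and not in the rule, was at 11250 CPM and 1672 CPM in other deep myeloid cells, a log2 ratio of 2.75 (2.73 to 2.77), and every chosen cell held 12 or more UMIs of it. Trem2 was at 832.2 CPM, compared with 350.6 CPM, a log2 ratio of 1.25 (1.19 to 1.30), and was at 305.3 to 421.3 CPM in the 3 other gates. Mmp12, the macrophage elastase, had a log2 ratio of 2.82, but 10 cells held 98.9% of its UMIs, with 453 in a single cell, and without them the ratio was -3.66. Apoe, which encodes an apolipoprotein that macrophages secrete, went the other way, at 9088 CPM compared with 15719 CPM. Of the genes named in this text, those outside the fixed naming rule, such as Apoe, were chosen after their values were seen.

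Genes of lipid transport and storage were prominent among the higher ones. Of 37 genes for lipid uptake, storage and efflux, 13 were higher and 4 lower, with a median log2 ratio of 0.30, and with centring 17 and 3. Against the monocytes 6 of 35 were higher and 4 lower, with a median of 0.09, where 2.71% of all genes tested were higher and 7.92% lower. Fabp4, the fatty acid carrier best known from adipocytes, was at 1780 CPM compared with 117.1 CPM, a log2 ratio of 3.93 (3.88 to 3.97), and 69.9% of cells held it after thinning compared with 8.16%. The adipocyte markers gave a single UMI in all 183 cells, with Plin1, Cidec, Lep and Cfd at 0. Fabp3, the heart-type carrier, had a log2 ratio of 3.08 (2.88 to 3.28).

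Abcg1, which exports cholesterol to lipoprotein particles, was at 142.7 CPM compared with 30.8 CPM, a log2 ratio of 2.21 (2.08 to 2.35). Its partner Abca1 was at 444.2 CPM compared with 370.0 CPM and did not pass 2-fold. Olr1, a scavenger receptor for oxidised lipoprotein, was at 138.9 CPM compared with 30.5 CPM. Lpl, which releases fatty acids from lipoproteins, was at 1512 CPM compared with 343.4 CPM, and Plin2, which coats lipid droplets, at 1310 CPM compared with 403.9 CPM. Soat1, which esterifies cholesterol for storage, was at 296.8 CPM compared with 111.3 CPM. Nr1h3 itself was at 48.0 CPM compared with 6.87 CPM, a log2 ratio of 2.81 (2.55 to 3.05), the highest of 30 transcription factors tested.

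Lysosomal genes stood high in part. Of 38 lysosomal enzymes and membrane proteins, 11 were higher and 2 lower, with a median log2 ratio of 0.57, and with centring 19 and 1. Ctsd, an aspartic protease, was at 2887 CPM compared with 656.5 CPM, a log2 ratio of 2.14 (2.11 to 2.17). Psap, the precursor of the saposins that help degrade sphingolipids, was at 5100 CPM compared with 1544 CPM. Ctsk, a collagen-degrading protease best known from osteoclasts, had a log2 ratio of 2.06 (1.89 to 2.22), with 47.5% of its UMIs in 10 cells and a ratio of 1.22 without them. Ctsc, which activates serine proteases, was lower, at 314.7 CPM compared with 864.2 CPM.

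The proton pump of the lysosome showed 5 higher and no lower genes of 17 subunits, and with centring 10 and none. Atp6v0d2, a subunit that macrophages and osteoclasts use in place of the common form, was at 264.5 CPM compared with 17.8 CPM, a log2 ratio of 3.90 (3.78 to 4.02), whereas the common form Atp6v0d1 was at 191.6 CPM compared with 149.1 CPM. Atp6v1c1, Atp6v1g1 and Atp6v1b2 of the cytoplasmic domain had log2 ratios of 1.28, 1.15 and 1.09. Among osteoclast genes, 3 of 11 were higher and 6 lower, and with centring 3 and 3. Dcstamp, needed for cell fusion, gave 3 UMIs in all 183 cells and Mmp9 gave 11.

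**Figure D3:**
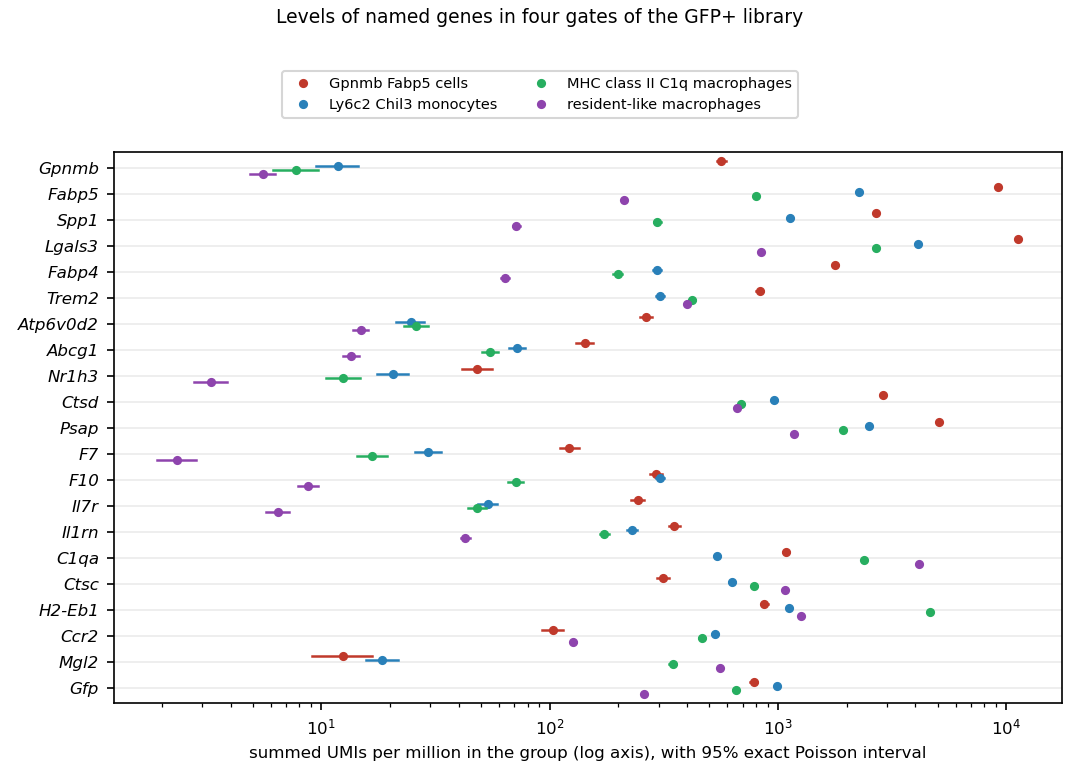
Level of 21 named genes (CPM of summed UMIs, log x axis) in the Gpnmb Fabp5 cells and 3 other gates of the GFP-positive library, with 95% exact Poisson intervals as bars. Red points lie to the right of all others for the genes from Gpnmb to F7, for Il7r and for Il1rn, and to the left of all others for Ctsc, H2-Eb1, Ccr2 and Mgl2.

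Energy and redox genes had medians above 0 against the other deep myeloid cells. Of 21 glycolysis and hypoxia genes, 7 were higher and none lower, with a median log2 ratio of 0.86, and with centring 14 and none. Against the monocytes none of 20 was higher and 1 was lower. Pgam1, a glycolytic enzyme, was at 489.8 CPM compared with 117.3 CPM, and Mif, a cytokine that is also a hypoxia target, at 353.4 CPM compared with 117.4 CPM. Vegfa, which drives vessel growth, was at 82.6 CPM compared with 26.9 CPM. None of 17 oxidative phosphorylation genes passed 2-fold, although their median was 0.62, and with centring 12 did. The highest of these were Atp5g1, Cox5a, Cycs and Sdhb, with log2 ratios of 0.83 to 0.99.

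Of 24 antioxidant and iron genes, 6 were higher and 1 lower, and with centring 10 and 1. Against the monocytes none of 22 was higher and 1 was lower. Ferritin light chain Ftl1 was at 16980 CPM compared with 6464 CPM, and heavy chain Fth1 at 21236 CPM compared with 8212 CPM. The genome holds near-identical processed copies of the ferritin genes, Prdx1 and Fabp5, so reads that match more than a single copy leave their levels uncertain. Prdx1, a peroxidase, was at 2513 CPM compared with 863.4 CPM. Slc7a11, the cystine importer, was at 405.0 CPM compared with 153.3 CPM but higher still in monocytes, at 566.0 CPM. Slc40a1, the iron exporter, gave 12 UMIs, or 3.31 CPM compared with 17.4 CPM.

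Genes of resident macrophages were low, in cells whose choice limited 4 of their markers. Of 20 such genes outside the rule, none was higher and 18 were lower, with a median log2 ratio of -2.54. Mgl2, a lectin of resident and alternatively activated macrophages, was at 12.4 CPM compared with 399.7 CPM. Timd4, a phosphatidylserine receptor of long-lived resident cells, and the lectin Cd209d gave no UMI, which allows up to 0.828 CPM at 3 counts, and Cd209f gave 2. Of the gates with the same limit, 2 of 17 were higher and 2 lower against the Ly6c2 Chil3 monocytes, and none of 16 was higher and 8 were lower against the MHC class II C1q macrophages, where 3.02% of all genes tested were higher and 16.3% lower.

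Antigen presentation genes were mostly lower than in the other deep myeloid cells, while the lower shares of complement and clearance genes lay nearer the 32.7% of all genes. Of 12 complement genes none was higher and 5 were lower, and with centring 1 and 3. C4b was at 7.73 CPM compared with 206 CPM and C1qa at 1080 CPM compared with 2898 CPM, although C1qa was higher than the 542.9 CPM of monocytes. Of 11 antigen presentation genes 1 was higher and 8 were lower, with centring 1 and 3, and without barcodes holding 5 UMIs of another class 1 and 10. Against resident-like macrophages 1 was higher and 2 were lower, with a median log2 ratio of -0.41 near the -0.42 of all genes, and against the monocytes none was higher and 5 were lower. H2-Eb1 was at 870.0 CPM compared with 2383 CPM, the costimulator Cd86 at 225.8 CPM compared with 905.2 CPM, and Ciita, the regulator of MHC class II genes, at 4.69 CPM compared with 23.8 CPM. Of 18 receptors and bridges of apoptotic cell uptake, 2 were higher and 7 lower, and with centring 4 and 5, and their median log2 ratio of -0.35 lay above that of all genes. Cd300lf, a phosphatidylserine receptor, was at 74.0 CPM compared with 8.66 CPM, whereas the bridging protein Gas6 was at 50.8 CPM compared with 322.8 CPM, and Marco gave no UMI.

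Infiltrating monocyte genes split by the group compared. Against resident-like macrophages, 11 of 18 were higher and 2 lower, where 5.45% of all genes tested were higher and 31.8% lower. Against the Ly6c2 Chil3 monocytes none of 20 was higher and 14 were lower. Ly6c2 and Chil3 chose that gate and were not left out of this count, so their lower levels there were fixed in advance. Chil3, a chitinase-like protein of monocytes, was at 442.0 CPM in Gpnmb Fabp5 cells, 1226 CPM in the monocytes and 15.7 CPM in resident-like macrophages. Ly6c2 was at 54.9, 245.6 and 2.17 CPM. Ccr2, the receptor that brings monocytes into tissue, was at 103.0 CPM and 531.6 CPM. Thbs1, a secreted matrix protein, was at 305.6 CPM and 261.9 CPM.

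Secreted signals differed gene by gene. Of 25 cytokines and growth factors, 6 were higher and 3 lower than in the other deep myeloid cells, and with centring 9 and 2. The cytokine Il1a was at 183.9 CPM compared with 41.8 CPM and Il1rn, the receptor antagonist, at 351.7 CPM compared with 87.6 CPM. Il1b was at 1743 CPM compared with 915.5 CPM, did not pass 2-fold, and was at 3671 CPM in the monocytes. Gdf15, a stress-induced hormone, was at 1265 CPM compared with 339.9 CPM. Gdf3 gave 40 UMIs, all in 10 cells, and Pdgfc, a growth factor for mesenchymal cells, was at 12.2 CPM compared with 51.6 CPM. Tgfb1 was at 214.8 CPM compared with 252.3 CPM, a log2 ratio of -0.23 that centring turned to 0.21.

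Of 20 chemokines, 4 were higher and 6 lower, with centring 6 and 5, and without barcodes holding 5 UMIs of another class 2 and 8. Ccl8 and Ccl12, which attract monocytes, were at 79.0 and 70.4 CPM compared with 1171 and 566.1 CPM, and Cxcl9 gave 1 UMI and Ccl22 none. Among 17 chemokine and growth factor receptors none was higher and 7 were lower, though centring gave 3 higher and 1 lower. Cx3cr1 was at 24.0 CPM compared with 99.8 CPM and Tgfbr2, which binds transforming growth factor beta, at 89.5 CPM compared with 208.6 CPM.

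Receptors of osteopontin were present in the same cells at levels close to those of other deep myeloid cells. Of 9 tested none was higher and 1, Itga9, was lower, and with centring 1 was higher and none lower. Itga9 was at 24.0 CPM compared with 58.6 CPM. Cd44 was at 858.4 CPM compared with 599.6 CPM, Itgav at 286.3 CPM compared with 168.5 CPM and Itgb5 at 88.4 CPM compared with 67.4 CPM. Itgb1 was at 278.3 CPM compared with 292.6 CPM, a log2 ratio of -0.07 (-0.16 to 0.02), and Itgb3 gave 4 UMIs. Coro1a, an actin regulator of leukocytes that the study also examined, was at 283.8 CPM, compared with 363.0 CPM in other deep myeloid cells and 783.6 CPM in the monocytes. With centring, the log2 ratios of Itgb1 and Coro1a to other deep myeloid cells changed sign, from -0.07 to 0.37 and from -0.36 to 0.08.

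Matrix and matrix remodelling genes gave 9 higher and 6 lower of 26, and with centring 10 and 3. Tgm2, a cross-linking enzyme, was at 122.9 CPM compared with 26.1 CPM, and Thbs1 at 305.6 CPM compared with 61.3 CPM, with 54.8% of its UMIs in 10 cells and a log2 ratio of 1.28 without them in place of 2.32. Col1a1 was at 75.9 CPM compared with 358.8 CPM, and 10 cells held 93.5% of it. Of 30 transcription factors 4 were higher and 9 lower, and with centring 7 and 6. Klf2, Stat3 and Irf4 had log2 ratios of -2.15, -1.78 and -2.41. Mitf and Tfeb, regulators of lysosomal genes, had log2 ratios of 0.48 (0.40 to 0.56) and 0.24 (-0.07 to 0.55) and did not pass 2-fold.

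Cell cycle genes were low against the other deep myeloid cells but not against the monocytes. Of 18 tested none was higher and 12 were lower, with a median log2 ratio of -1.67, whereas against the monocytes 1 of 10 was higher and 1 lower, with a median of 0.14. At least 2 UMIs of Mki67 and Top2a together were found in 45 of the 183 cells (24.6%). Ccna2 and Cenpf gave no UMI, Cdk1 gave 3 and Birc5 4. Mki67 was an exception at 160 UMIs, or 44.2 CPM, close to the 42.2 to 50.8 CPM of the other myeloid groups, while Top2a was at 5.25 CPM compared with 33.5 CPM. Type I interferon response genes gave none higher and 2 lower of 15, with Ifit2 at 2.21 CPM compared with 11.8 CPM.

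**Figure D4:**
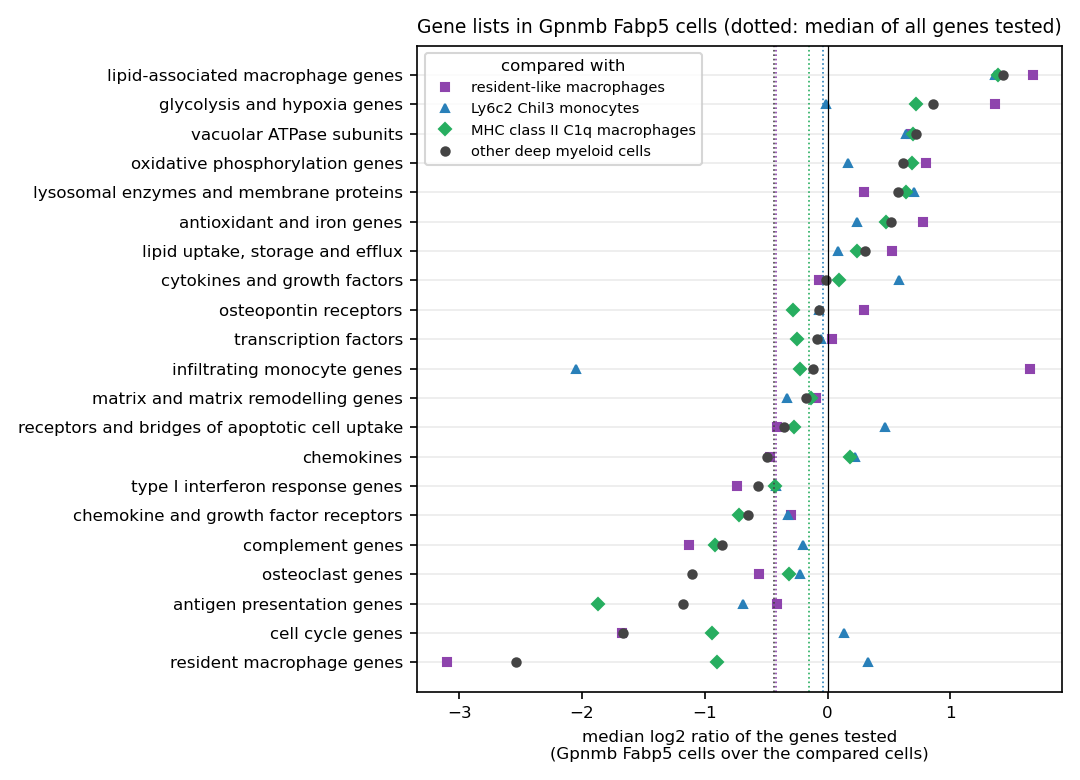
Median log2 ratio of the genes tested in each of 21 lists (x axis), Gpnmb Fabp5 cells over 4 compared groups (symbols), with dotted lines at the median of all genes tested in each comparison. Lipid-associated macrophage genes lie at 1.36 to 1.67 in all 4 comparisons, while infiltrating monocyte genes lie on opposite sides of 0 against monocytes and resident-like macrophages. Ly6c2 and Chil3, which chose the monocytes, were not left out of the lists.

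Outside the lists, the genes with the highest ratios to other deep myeloid cells included a pair of coagulation factors. F7, which encodes factor VII, was at 122 CPM compared with 9.17 CPM, a log2 ratio of 3.73 (3.56 to 3.91), and it was at 29.3 CPM in monocytes and 2.32 CPM in resident-like macrophages. F10, which encodes factor X, was at 292.9 CPM compared with 56.7 CPM, but at 305.4 CPM in monocytes. Il7r, the interleukin-7 receptor chain best known from lymphocytes, was at 242.7 CPM compared with 23.0 CPM, and 47.5% of cells held it after thinning compared with 5.09%, while 8 of 11 T and NK markers were at 0. Others of the highest 15 were Rhov, Dock3, Hal, Lhfpl2, Rapgef4, Rnf128, Fam83f, Fam20c, Tusc1, Dhrs9 and B430306N03Rik, with log2 ratios from 2.23 to 3.15. Hal, which breaks down histidine, was at 110.7 CPM compared with 14.6 CPM, and Fam20c, a kinase of secreted proteins including osteopontin, at 120.9 CPM compared with 20.9 CPM.

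Of 11230 genes in no list with at least 200 UMIs over both groups, 121 gave no UMI in the 183 cells and were not ranked. Of the genes with a UMI, the 10 with the lowest ratios gave 1 or 2 in all 183 cells. They were Atp1b1, Ctnnd2, Plxna4, P2ry10, Hrh1, Il1rl1, Tmod1, Ch25h, Pcdh17 and Btla, at 13.8 to 97.7 CPM in the other deep myeloid cells. Atp1b1, a sodium pump subunit, had 1 UMI, a log2 ratio of -8.47 (-13.77 to -5.99), and was at 169.6 CPM in resident-like macrophages and 4.56 CPM in monocytes.

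The monocytes were the closest of the 3 gates by the number of genes past 2-fold. Of 9278 genes tested against them, 2.71% were higher and 7.92% lower in Gpnmb Fabp5 cells, and the median log2 ratio was -0.04. Against MHC class II C1q macrophages 3.02% of 10186 genes were higher and 16.3% lower, with a median of -0.15, and against resident-like macrophages 5.45% of 13498 were higher and 31.8% lower, with a median of -0.42. The numbers of genes tested differed because the groups differed in size, and the 3 comparisons share the 183 cells. The gates themselves also bear on this order. Of the 183 cells, 97 met the limits of the monocyte gate. The resident-like gate required genes that the rule limits, and the MHC class II gate limited Ly6c2 and Chil3. The part of these limits was not tested. Higher genes were 25.5% of those past 2-fold against monocytes, and 36.6% when all cells were thinned to 5000 UMIs before the rule. Centring moved this share from 9.04% to 29.3% against other deep myeloid cells, from 14.6% to 36.0% against resident-like macrophages and from 15.6% to 26.8% against MHC class II C1q macrophages.

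Most lipid-associated macrophage genes were past 2-fold in each comparison. Of 27 tested, 21 were higher than in monocytes, with none lower, and 18 were higher and 1 lower than in resident-like macrophages. Of 26 tested against MHC class II C1q macrophages, 20 were higher and none lower. Fabp4, Atp6v0d2, Ctsd and Fabp3 had log2 ratios of 2.59, 3.43, 1.58 and 1.72 against monocytes. Other genes that were high against all myeloid cells together were near the monocyte level, as with F10, Vegfa, Olr1 and Thbs1, whose log2 ratios to monocytes were -0.06, -0.12, 0.23 and 0.22. Against the monocytes, lysosomal genes gave 10 higher and 1 lower of 38, vacuolar ATPase subunits 3 and none of 17, oxidative phosphorylation genes none and none of 17, cytokines and growth factors 3 and 4 of 23, chemokines 2 and 2 of 18, matrix genes 5 and 4 of 25 and transcription factors 2 and 2 of 30. Antigen presentation genes were lowest against the MHC class II gate, where 10 of 11 were lower, but that gate was chosen by 3 such genes.

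The reporter transcript was detected in most of these cells, whereas S100b, the gene whose promoter drives it, gave 1 UMI in all 183. Gfp was at 784.1 CPM (755.5 to 813.5), with 12 UMIs in the median cell, and 86.3% of cells held it after thinning. Its level was lower than the 993.2 CPM of monocytes and higher than the 652.3 CPM of MHC class II C1q macrophages and the 258.8 CPM of resident-like macrophages. Non-myeloid cells had 146.9 CPM, and 34.7% of them held a Gfp UMI after thinning. Since all cells had passed a sort for green fluorescence, their part in the muscle as a whole cannot be read from these shares.

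The cells differed among themselves in the genes that separate monocytes from tissue macrophages. At least 5 UMIs of Ly6c2 and Chil3 were found in 97 cells (53.0%) and none in 38, while 139 (76.0%) held at least 5 UMIs of C1qa, C1qb and C1qc. Both sets reached 5 UMIs in 66 cells, only the monocyte genes did in 31, only the C1q genes in 73 and neither in 13. MHC class II genes reached 30 UMIs in 98 cells. Over the 183 thinned cells, which share 1 library, Chil3 and C1qa had a Spearman correlation of -0.27, Fabp5 and Lgals3 of 0.55, Fabp5 and Prdx1 of 0.39, Spp1 and Fabp5 of 0.21, and Gpnmb had correlations of 0.06 with Fabp5 and 0.02 with Spp1. The rule set minimum counts of Gpnmb and Fabp5, which restricts the range of both, so these values describe the chosen cells only.

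The 97 cells with at least 5 monocyte UMIs and the other 86 had like depths, with medians of 18802 and 18992 UMIs. The chemokines Ccl2 and Ccl7 were at 4042 and 2509 CPM in the former and 1458 and 864.8 CPM in the latter, and F10 at 394.2 and 182.4 CPM. Apoe was at 6867 and 11511 CPM, Selenop at 626.0 and 1168 CPM, and Atp6v0d2 at 195.3 and 340.0 CPM, so these were higher in the cells with fewer monocyte UMIs. Mesenchymal markers summed to 928.2 and 387.4 CPM, and to 372.9 and 95.6 CPM without the richest cell of each, and their part in this split was not tested. The cells were also split by Spp1, which set 54 cells with 50 or more Spp1 UMIs beside the 24 with none, at median depths of 21122 and 17730 UMIs. Atp6v0d2 was at 314.8 and 90.8 CPM, Fabp4 at 1949 and 753.4 CPM, Trem2 at 957.4 and 462.9 CPM, Cd9 at 1012 and 335.8 CPM and C1qa at 1151 and 419.8 CPM. H2-Eb1 was at 536.8 and 1418 CPM. Mesenchymal markers summed to 145.3 and 2975 CPM, and to 45.6 and 615.6 CPM without the richest cell of each, and their part was likewise not tested.

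Clustering of the 183 cells without the rule genes gave 3 subgroups, of 55, 57 and 71 cells, as a description of how they vary. The number depended on the resolution of the clustering, with 1 subgroup at a lower and 6 at a higher setting. Apart from the rule genes, genes of the same cells formed the subgroups, so the levels are descriptions and are not tested. Median depths were 20122, 19931 and 16825 UMIs.

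Subgroup 1 was led by Fabp4, Ctsk, Hvcn1, Itgb7, Rgcc and Tusc1. Fabp4 was at 3108 CPM, compared with 920.7 CPM in subgroup 2 and 1390 CPM in subgroup 3, and Lgals3 was at 17347 CPM compared with 7314 and 9450 CPM. The lipoprotein lipase gene Lpl was at 2129, 1354 and 1104 CPM, the droplet coat Plin2 at 1952, 965.7 and 1055 CPM, and Prdx1 at 3544, 1640 and 2404 CPM in subgroups 1 to 3. Mki67 was at 9.56 CPM there and at 65.0 and 55.8 CPM in the others.

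Subgroup 2 was led by Igfbp4, Selenop, Fcgrt, Gatm, Ldlrad4 and Trf. Apoe was at 17497 CPM, compared with 3971 and 5781 CPM, and Abca1 at 707.4 CPM compared with 331.2 and 298.1 CPM. C1qa was at 1743 CPM compared with 718.1 and 781.7 CPM, and 96.5% of its cells held at least 5 UMIs of the C1q genes. Mesenchymal markers summed to 1715 CPM in this subgroup, compared with 50.4 and 243.0 CPM, and 7 of its cells held 5 or more such UMIs. Single cells held 1064 and 509 of its 2058 mesenchymal UMIs, and the sum was 856.4 CPM without the first of them and 432.1 CPM without both. In subgroup 3 a single cell held 242 of 309, and the sum was 53.2 CPM without it.

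Subgroup 3 was led by Acod1, Slpi, Ifi205, Ednrb, Clec4n and Isg15. Acod1, which makes itaconate in activated macrophages, was at 136.1 CPM compared with 18.3 and 27.5 CPM. Il1b was at 3157 CPM compared with 672.9 and 1270 CPM, Ccl4 at 3159 CPM compared with 887.6 and 1655 CPM, and Cxcl2 at 21133 CPM compared with 11568 and 9000 CPM. At least 5 UMIs of Ly6c2 and Chil3 were found in 71.8% of its cells, compared with 45.5% and 36.8%. Atp6v0d2 was lowest there, at 107.0 CPM compared with 324.3 and 374.1 CPM. Spp1 did not follow the subgroups closely, at 2789, 3101 and 2194 CPM, with shares of cells after thinning of 83.6%, 82.5% and 73.2%, and Gpnmb was at 608.6, 525.8 and 563.9 CPM.

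**Figure D5:**
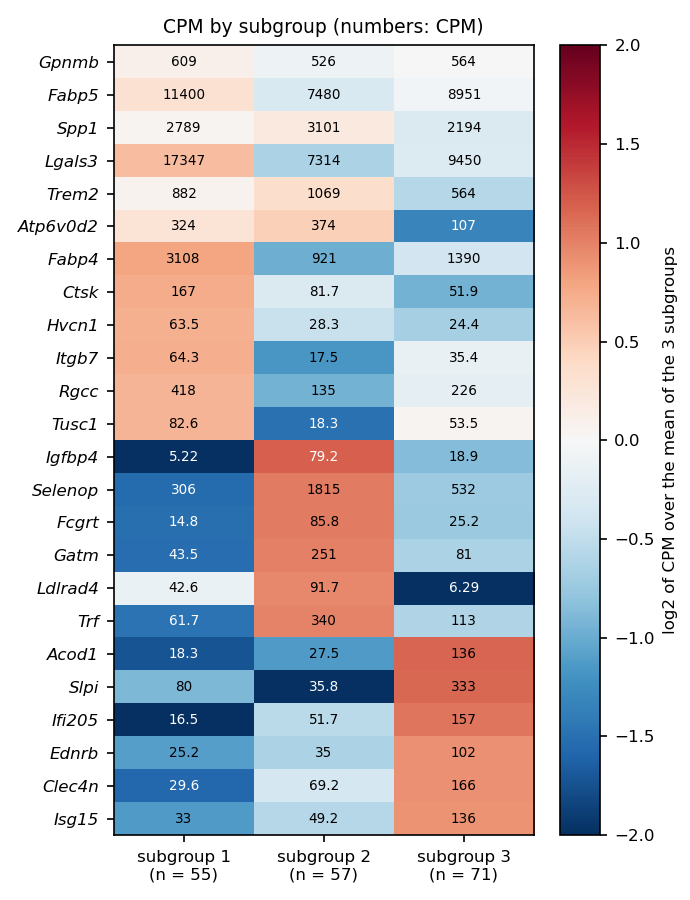
CPM of 6 marker genes and of the 6 leading genes of each subgroup (rows) in the 3 subgroups of Gpnmb Fabp5 cells (columns, with the number of cells). Numbers are CPM and colour is log2 of the CPM over the mean of the 3 subgroups, and Gpnmb, at 526 to 609 CPM, shows little contrast while the leading genes of subgroups 2 and 3, such as Igfbp4 and Acod1, show more.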

How the data were processed

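Single-cell RNA was measured with droplet 3′ libraries of sorted muscle cells. The deposited file holds raw UMI counts, which the authors made with Cell Ranger at its default settings. The submitters' processing notes name Cell Ranger 7.1.0 and mm10, the matrix header names software 8.0.1, and the study's methods name other references as well, so the version and the genome build are uncertain. The GFP-negative library's counts were not analysed here. Its 39531 barcodes share 372 names with the GFP-positive library. The GFP-positive library held 170648616 UMIs over 36400 barcodes and 32287 features, and no column of values was left unmapped.

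UMIs were summed per group and given as CPM, with 95% exact Poisson intervals, exact binomial (Clopper-Pearson) intervals for shares and exact conditional intervals for ratios. These cover counting error only. With 1 library no p-value was computed. A count of 0 was read against a floor of 3 UMIs. The 8 genes of the rule were left out of the counts of genes past 2-fold. Clustering used the Leiden method at resolution 0.5 in scanpy 1.11.5, with python 3.11.15, numpy 2.4.6, scipy 1.17.1 and pandas 2.3.3. Doublets were not removed. They were checked by Scrublet and by UMIs of other cell classes. Of 392 genes in 21 pathway lists, 389 were found. The ratio calculation was tested on simulated data.

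Genes named in the text were the markers, the rule genes, Trem2, Gfp and S100b, up to 4 genes per list with the largest absolute ratio to other deep myeloid cells and at least 100 UMIs, receptors and genes with a stated role in the study, the 15 highest and 10 lowest ratios outside the lists with at least 200 UMIs and, for the lowest, at least 1 UMI in the chosen cells, and up to 6 leading genes per subgroup, 119 in all, of which 4 are not reported here. The cells, the gates and the gene lists were chosen with earlier results of these data known.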

Additional observations from a re-analysis of the deposited data

How the results depend on the processing

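The share of deep myeloid cells that met the rule, 2.78%, was 3.52% with a looser gate (at least 2 Gpnmb and 3 Fabp5 UMIs), 1.84% with a stricter one (6 and 10), 4.21% at 10000 UMIs or more per barcode, 3.34% with mitochondrial genes under 5%, 1.32% when cells were thinned to 5000 UMIs and 3.44% without barcodes holding 5 UMIs of another class. The share of these cells with an Spp1 UMI was 65.6% at 2000 UMIs and 86.9% without thinning. With at least 200 UMIs over both groups, genes past 2-fold numbered 3288 against other deep myeloid cells, 3103 against resident-like macrophages, 424 against monocytes and 927 against MHC class II C1q macrophages, and with no minimum 13261, 12892, 6982 and 8793, since fewer or more genes were then tested. In the comparisons as reported they numbered 5319, 5027, 986 and 1969. Clustering gave 1 subgroup at resolution 0.25 and 6 at resolution 1. Without the 10 cells richest in the gene, the log2 ratio to other deep myeloid cells was -3.66 for Mmp12 in place of 2.82. Leaving out the richest cells lowers each ratio by construction, and moved 76 named genes beyond their counting interval, with 1 within it. Thinning to 5000 UMIs moved 59 with 29 within, and leaving out barcodes with 5 UMIs of another class moved 41 with 53 within. The other alternatives, apart from centring, moved 9 to 36. Centring turned the log2 ratios of Itgb1, Itgb3, Tgfb1 and Coro1a, none of them past 2-fold, from -0.07, -0.19, -0.23 and -0.36 to 0.37, 0.25, 0.21 and 0.08. Leaving out those cells or the cells richest in mesenchymal UMIs, centring, the list counts and the splits of the cells were alternatives chosen after seeing the data. No paired analysis was possible because there is 1 library and no result comes from a test. Depth limits the genes with few UMIs, where 3 counts correspond to 0.828 CPM.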
